A study of Mus musculus with 15 samples.

Results

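Aminoacyl-tRNA synthetases were examined after knockdown of a protein of the large ribosomal subunit in E14, a line of mouse embryonic stem cells. The members are the rows of 36 named genes, 20 for cytosolic synthetases and 16 for mitochondrial ones (symbols ending in 2), out of 24819 genes in the expression tables. All 36 were found in both tables and passed the filter on low values, which kept 12249 genes. The groups were a non-targeting siRNA (siNT) and siRNAs against Rpl11, Rpl14, Rpl18 and Rpl23. All 5 groups were E14 cells, with no genetic change named in the labels, kept in serum and leukemia inhibitory factor on gelatin-coated plates and transfected with DharmaFECT, so a transfected siRNA is shared by the control as well. The knockdown lasted 48 h by the sample titles but 3 days by the treatment protocol, and which holds was not settled. Each group had 3 libraries of polyadenylated RNA. Libraries 1 and 2 of every group share 1 table and entered the tests, at n = 2. The third library of a group, from a table normalized on its own, gives sign and size only. Whether libraries of a group are separate cultures is not in the labels, so the p-values speak only of library-to-library spread, possibly technical.

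Aminoacyl-tRNA synthetases join each amino acid to its tRNA, the step that fixes the meaning of the codon before the tRNA reaches the ribosome. Cytosolic and mitochondrial translation mostly use enzymes from separate nuclear genes. A few genes, such as Gars (glycine) and Kars (lysine), encode both forms, which is why they have no partner with the suffix 2. Eprs charges both glutamate and proline tRNAs, and phenylalanine uses a cytosolic enzyme of unlike subunits, Farsa and Farsb. Several cytosolic enzymes sit in the multi-tRNA synthetase complex around scaffold proteins. Many cytosolic synthetase genes are known targets of ATF4, the transcription factor of the amino acid response.

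FPKM carries no total count, so only relative depth could be read, from the smallest steps in the values. With the first siNT library of a table set to 1, libraries 1 and 2 had depths of 0.697 to 1.39 and the third libraries of 1.00 to 1.31. The targeted transcripts were at 24.0% (Rpl11), 51.6% (Rpl14), 32.6% (Rpl18) and 36.3% (Rpl23) of the siNT mean in their own knockdowns. The summed level of 10 embryonic stem cell markers was 7299 to 8378 FPKM over the siNT libraries and 5372 to 7224 FPKM over the knockdown libraries. Of 8 fibroblast and feeder markers, 6 were under 1 FPKM in every library (Col1a1, Col1a2, Col3a1, Dcn, Lum and Postn), and the sum of all 8 was 16.7 to 20.3 FPKM in siNT against 4.18 to 11.5 FPKM in the knockdowns. Both marker sums were thus lower after knockdown, though within the third libraries the stem cell sum of siRpl11 was 7224 FPKM against 7299 FPKM in siNT. Single markers differed. Dppa5a, the largest of the stem cell sum, had means of 4199 FPKM in siNT and 2760 to 3680 FPKM in the knockdowns. Within the third libraries Dppa5a was at 103%, 97.7%, 87.3% and 96.5% of siNT in siRpl11, siRpl14, siRpl18 and siRpl23. Sox2 had 218 FPKM in siNT and 237 to 278 FPKM in the knockdowns. By means, Nanog was at 43.9% to 59.0% of siNT. Pou5f1 and Utf1 were at 113% and 131% in siRpl11, and at 80.7% to 81.4% and 98.3% to 99.5% in the others. Thy1 made up most of the fibroblast sum (14.8 FPKM in siNT and 4.44 to 8.01 FPKM in the knockdowns). Col1a1, under 1 FPKM throughout, was at 42.3% of siNT in siRpl11 and 165% to 195% in the others. The part of these markers in the synthetase results was not tested. In bulk RNA, fewer cells of a type and less RNA per cell cannot be told apart.

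In siNT cells the cytosolic synthetases were the more abundant class. FPKM is scaled by transcript length, so levels can be set side by side. Their siNT means had a median of 96.5 FPKM and ran from 44.2 FPKM (Wars, tryptophan) to 197 FPKM (Nars, asparagine). The mitochondrial synthetases had a median of 11.3 FPKM and ran from 2.26 FPKM (Wars2) to 36.4 FPKM (Iars2), apart from Lars2 at 173 FPKM.

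Most cytosolic synthetase transcripts fell in every knockdown. The 3 deepest falls were Sars (serine), Nars (asparagine) and Yars (tyrosine) in siRpl14, siRpl18 and siRpl23, and Sars, Cars (cysteine) and Nars in siRpl11. Of the 20, limma called 15 lower and 2 higher in siRpl11, where 70.9% of all tested genes were called, 43.6% lower and 27.3% higher. In siRpl14, 15 were called lower and 0 higher, against 29.5% and 33.3% of all tested genes (62.8% called in all). In siRpl18, 17 were called lower and 0 higher, against 34.7% and 32.8% (67.6% in all). In siRpl23, 15 were called lower and 0 higher, against 30.8% and 34.9% (65.7% in all). The median log2 fold change of the 20 was -0.60 in siRpl11, -0.52 in siRpl14, -0.47 in siRpl18 and -0.50 in siRpl23, where the median of all tested genes was -0.11, 0.02, -0.02 and 0.02. In all, 14 of the 20 were called lower in all 4 knockdowns, or 70.0%, where 22.7% of all tested genes were; the 4 comparisons share the siNT libraries. Farsa was the only cytosolic member called in none.

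The summed level of the 20 transcripts was 2135 ± 20.6 FPKM (SD, n = 2) in siNT. It was 70.5% of that in siRpl11, 70.9% in siRpl14, 68.1% in siRpl18 and 69.8% in siRpl23. Within the third libraries the sums were 77.1%, 75.4%, 75.2% and 72.7% of siNT. The third libraries had the same sign for 17 of 17 cytosolic calls in siRpl11, 15 of 15 in siRpl14, 16 of 17 in siRpl18 (Wars differed) and 15 of 15 in siRpl23. Over all called genes that share was 91.8%, 91.0%, 90.7% and 88.9%.

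Sars, the seryl-tRNA synthetase, had the deepest fall. It was at 108 and 110 FPKM in siNT and 98.6 FPKM in the third siNT library. Its levels were 42.0, 45.2 and 43.5 FPKM in siRpl11, 47.0, 49.9 and 47.9 in siRpl14, 43.3, 48.5 and 46.3 in siRpl18, and 43.1, 48.3 and 44.4 in siRpl23. Every knockdown library was below every siNT library, the siRpl11 libraries were all below the siRpl14 libraries, and siRpl18 and siRpl23 overlapped both. The log2 fold changes were -1.30 ± 0.07 (SE, adjusted p = 1.7e-07) in siRpl11, -1.15 (adjusted p = 4.21e-07) in siRpl14, -1.23 (adjusted p = 2.08e-07) in siRpl18 and -1.24 (adjusted p = 2.17e-07) in siRpl23. Sars was thus at 40.1% to 44.5% of its siNT mean.

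Nars, which charges asparagine tRNA, was at 191 and 203 FPKM in siNT with 154 FPKM in the third library. In siRpl11 it was at 95.8, 98.9 and 90.3 FPKM, and over the other 9 knockdown libraries it ranged from 81.3 FPKM to 102 FPKM. No knockdown library reached the siNT range, and the levels were 47.4% to 49.9% of siNT. Nars fell by 1.01 in siRpl11, 1.00 in siRpl14, 1.07 in siRpl18 and 1.03 in siRpl23 on the log2 scale (adjusted p = 2.85e-07 to 5.94e-07).

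Yars, the tyrosyl-tRNA synthetase, was at 77.2, 73.4 and 69.7 FPKM in siNT. It was at 37.4, 37.3 and 36.2 FPKM in siRpl11 and at 35.0 FPKM to 38.5 FPKM over the other knockdown libraries. The 12 knockdown libraries lay within a narrow band, well under siNT. The log2 fold changes were -0.99, -0.97, -1.06 and -0.99 with an SE of 0.04. Aars, the alanyl enzyme, was at 171, 170 and 149 FPKM in siNT and at 85.6 to 91.9 FPKM over all knockdown libraries, with log2 fold changes of -0.90 to -0.95.

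**Figure D1:**
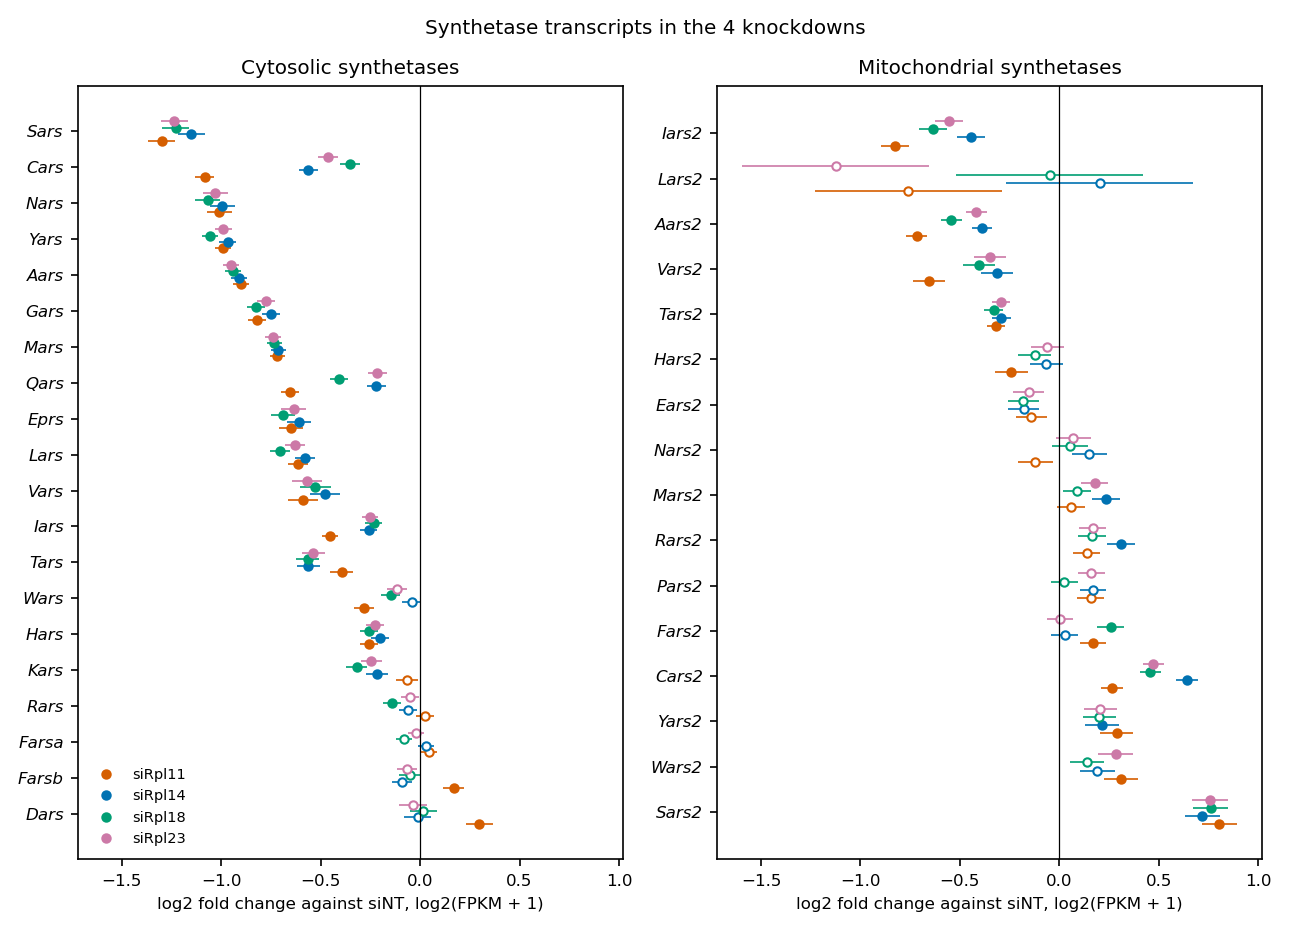
Log2 fold change against siNT on the log2(FPKM + 1) scale for the 20 cytosolic (left) and 16 mitochondrial (right) synthetases, ordered by siRpl11. Points are the estimates in the 4 knockdowns, filled where called, and bars are ± 1 SE. Cytosolic points lie mostly left of 0 (15 to 17 of 20 called lower), mitochondrial points on both sides, and Lars2 has the widest bars (SE 0.47).

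The next cytosolic enzymes fell by less and by similar amounts in the 4 knockdowns. Gars (glycine) had log2 fold changes of -0.75 to -0.83, Mars (methionine) of -0.71 to -0.74, Eprs (glutamate and proline) of -0.61 to -0.69, Lars (leucine) of -0.58 to -0.70 and Vars (valine) of -0.48 to -0.59. Tars (threonine) ran from -0.40 in siRpl11 to -0.57 in siRpl18. Among cytosolic enzymes called throughout, Hars (histidine) fell least in siRpl11 (-0.26) and siRpl14 (-0.20). Iars (isoleucine) fell least in siRpl18 (-0.23) and Qars (glutamine) in siRpl23 (-0.22), where Hars was at -0.26 and -0.23. The Hars call in siRpl11 was lost under median-ratio scaling.

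A few cytosolic enzymes stood outside this pattern. Dars, the aspartyl enzyme of the multi-tRNA synthetase complex, was at 66.3, 68.5 and 86.5 FPKM in siNT and at 82.1, 84.0 and 113 FPKM in siRpl11. Within each table the siRpl11 libraries were above siNT, and the other 3 knockdowns (62.9 to 73.8 FPKM in libraries 1 and 2) overlapped siNT. Dars rose in siRpl11 by 0.30 ± 0.07 (SE, adjusted p = 0.00305) and was not called elsewhere, with log2 fold changes of -0.04 to 0.02.

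Farsb, the β subunit of phenylalanyl-tRNA synthetase, was at 75.3, 79.2 and 72.2 FPKM in siNT and 84.5, 89.4 and 89.5 FPKM in siRpl11. It rose there by 0.17 ± 0.05 (SE, adjusted p = 0.0143), and the call was lost, at 0.13, without siNT replicate 1 or without siRpl11 replicate 2. Its partner subunit Farsa had log2 fold changes of -0.08 to 0.04, and none was called. In siRpl14, siRpl18 and siRpl23 Farsb was at -0.09, -0.05 and -0.07, not called, and the third libraries gave -0.11, -0.06 and -0.14. Neither subunit was thus called lower in the main fit. Some alternatives did call Farsb lower in siRpl14 and siRpl23, and Farsa lower in siRpl18. Rars (arginine) was called lower only in siRpl18 (-0.14), and that call and the one of Wars in siRpl18 (-0.15) did not hold under every alternative. Wars was also called lower in siRpl11 (-0.28), and Kars was called lower in siRpl14 (-0.22), siRpl18 (-0.32) and siRpl23 (-0.25) but not in siRpl11 (-0.07, adjusted p = 0.289).

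**Figure D2:**
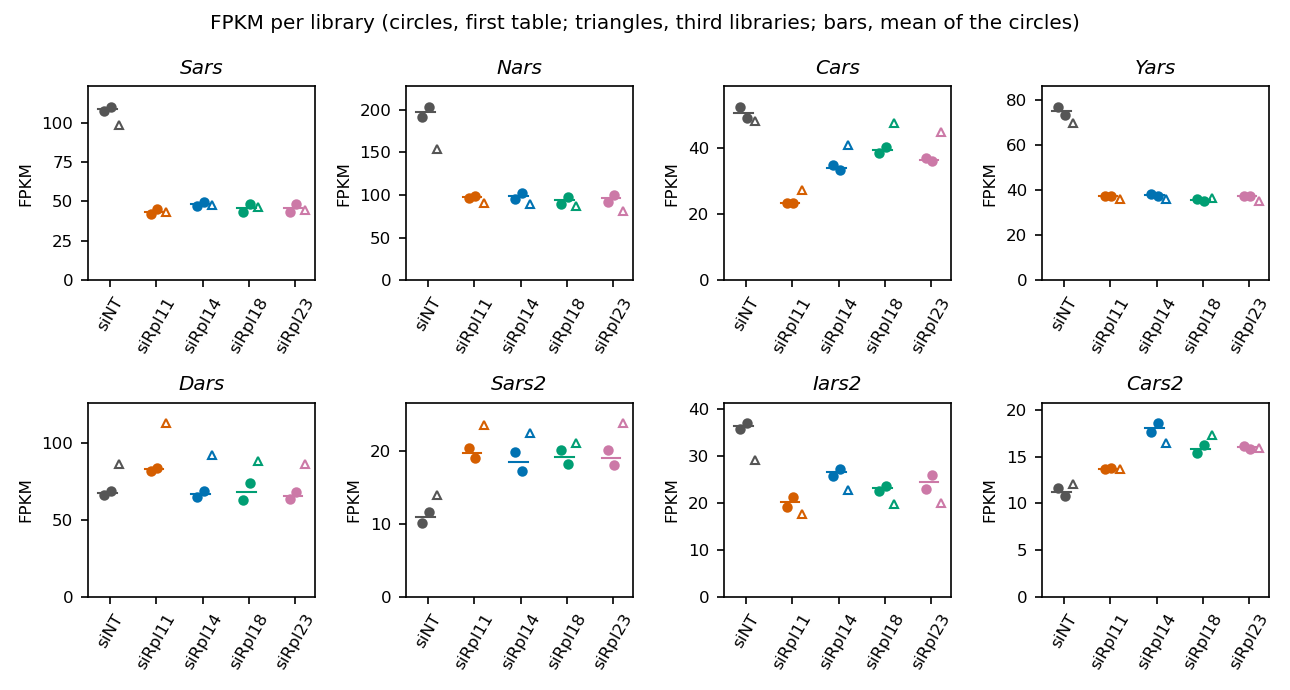
FPKM in each of the 15 libraries for 5 cytosolic (Sars, Nars, Cars, Yars, Dars) and 3 mitochondrial (Sars2, Iars2, Cars2) synthetases, by siRNA group, each axis starting at 0. Circles are libraries 1 and 2, triangles the third libraries from the separately normalized table, and bars the means of the circles. Sars drops from 108 and 110 FPKM to 42.0 to 49.9 FPKM in the first table while Sars2 goes from 10.2 and 11.7 FPKM to 17.3 to 20.4 FPKM.

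The cytosolic enzymes were also read by known features. Of 13 described as ATF4-linked (Aars, Cars, Eprs, Gars, Iars, Lars, Mars, Nars, Sars, Tars, Vars, Wars and Yars), all 13 were called lower in siRpl11 and siRpl18, and 12 in siRpl14 and siRpl23, where Wars was not called; of all tested genes 43.6%, 29.5%, 34.7% and 30.8% were lower in siRpl11, siRpl14, siRpl18 and siRpl23. Their median log2 fold changes were -0.72, -0.61, -0.70 and -0.64 in siRpl11, siRpl14, siRpl18 and siRpl23. Of the other 7 (Dars, Farsa, Farsb, Hars, Kars, Qars and Rars), 2 were called higher and 2 lower in siRpl11, and 3, 4 and 3 were called lower in siRpl14, siRpl18 and siRpl23. Their medians were 0.02, -0.09, -0.14 and -0.07. Both lists were drawn up with earlier results of these data known, so the contrast between them is a description only.

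Of the 8 synthetase genes of the multi-tRNA synthetase complex (Dars, Eprs, Iars, Kars, Lars, Mars, Qars and Rars), 5 were called lower in siRpl11, 6 in siRpl14, 7 in siRpl18 and 6 in siRpl23, and 1 (Dars) was called higher in siRpl11, beside 43.6%, 29.5%, 34.7% and 30.8% of all tested genes called lower. The scaffold gene Aimp2 was called higher in all 4 knockdowns, by 0.33, 0.23, 0.27 and 0.24 on the log2 scale. Its means over libraries 1 and 2 were 126%, 118%, 121% and 118% of siNT. Within the third libraries it was at 115%, 105%, 102% and 109%, so little of the rise was seen there in siRpl14 and siRpl18. Aimp1 was called lower in siRpl14 (-0.22), siRpl18 (-0.18) and siRpl23 (-0.14), and in siRpl11 it was at 0.10 (not called). The third libraries gave Aimp1 differences of 0.03, -0.05 and 0.03 in the knockdowns where it was called. Eef1e1, a further scaffold protein, was called lower in siRpl18 (-0.21) and siRpl23 (-0.14).

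Promoter sequence was available for 27 of the 36 members, 13 cytosolic and 14 mitochondrial, from 250 bases before to 50 after the gene start in RefSeq (build GRCm38.p6; Mars was matched through its synonym Mars1). Not printed are Cars, Hars, Lars, Nars, Rars, Vars, Wars, Hars2 and Pars2. The C/EBP-ATF response element TGATGNAA, on either strand, was found in 5 of the 13 cytosolic promoters and 0 of the 14 mitochondrial ones, and in 3.97% of the 32851 promoters of the table. The 5 are Aars, Gars, Iars, Tars and Yars, and the 5 promoters of other cytosolic enzymes had no match. All 5 genes with a match are described as ATF4-linked, a list with promoter sequence for 8 of its 13 enzymes. The windows, 1 per gene, are shown because 12 or 13 of the 13 enzymes of that list were called lower in each knockdown. Capitals mark the match, in the direction of the gene; in all but Yars the element itself lies on the opposite strand.
Aars, chr8:111033840-111033869, plus strand: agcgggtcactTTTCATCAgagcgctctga
Gars, chr6:55037960-55037989, plus strand: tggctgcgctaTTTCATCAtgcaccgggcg
Iars, chr13:49682126-49682155, plus strand: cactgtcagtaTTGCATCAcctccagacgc
Tars, chr15:11399655-11399684, minus strand: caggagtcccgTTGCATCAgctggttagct
Yars, chr4:129189895-129189924, plus strand: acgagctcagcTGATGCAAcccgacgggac
The first base of the match shown lay at 10 for Aars, -30 for Gars, 8 for Iars, -15 for Tars and 4 for Yars, counted from the gene start. Matches are descriptions of letters, not of bound sites. Sars, with the deepest fall, had no match in this window, and neither had Eprs and Mars, also called lower in all 4 knockdowns. The E-box CACGTG, searched after the values were seen, was in 4 of 13 cytosolic promoters (Aars, Farsb, Iars and Tars), 1 of 14 mitochondrial promoters (Ears2) and 7.15% of all promoters. It was present in Farsb, which was not called lower in the main fit, as well as in enzymes that were.

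Mitochondrial synthetase transcripts moved in both directions. Of the 16, limma called 5 higher and 5 lower in siRpl11, 5 and 4 in siRpl14, 3 and 4 in siRpl18 and 4 and 4 in siRpl23, against the shares of all tested genes given above. In all, 4 were lower in all 4 knockdowns (Aars2, Iars2, Tars2 and Vars2; 25%, against 22.7% of all tested genes) and 2 were higher in all 4 (Sars2 and Cars2; 12.5%, against 17.2%). These shares lie near the background. The counts of higher calls rested on single libraries: without siNT replicate 1 they were 3 in siRpl11, 3 in siRpl14 and 2 in siRpl23, and without siNT replicate 2 there were 5 in siRpl18. The median log2 fold change was -0.03, 0.16, 0.04 and 0.04 in siRpl11, siRpl14, siRpl18 and siRpl23, and it became 0.14 in siRpl11 and -0.02 in siRpl23 under quantile normalization and 0.13 in siRpl11 under median-ratio scaling. Without Lars2, the summed level was 220 ± 4.11 FPKM (SD, n = 2) in siNT and 94.5%, 103%, 97.5% and 99.2% of that in the knockdowns.

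Sars2, the mitochondrial seryl-tRNA synthetase, had the largest rise. It was at 10.2, 11.7 and 13.99 FPKM in siNT. It was at 20.4, 19.1 and 23.6 FPKM in siRpl11, 19.9, 17.3 and 22.6 in siRpl14, 20.2, 18.2 and 21.2 in siRpl18, and 20.1, 18.1 and 23.9 in siRpl23. All 12 knockdown libraries were above all 3 siNT libraries. The log2 fold changes were 0.81 ± 0.09 (SE, adjusted p = 2.06e-05), 0.72 (adjusted p = 6.13e-05), 0.76 (adjusted p = 3.33e-05) and 0.76 (adjusted p = 3.81e-05) in the order siRpl11, siRpl14, siRpl18 and siRpl23.

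Cars2, the mitochondrial cysteinyl enzyme, rose in all 4 knockdowns, least in siRpl11. Its levels were 11.7, 10.8 and 12.1 FPKM in siNT, 13.6, 13.8 and 13.7 in siRpl11, and 17.6, 18.6 and 16.5 in siRpl14. In siRpl18 they were 15.4, 16.2 and 17.3 FPKM and in siRpl23 16.2, 15.8 and 15.9 FPKM. No knockdown library overlapped siNT. The log2 fold changes were 0.27, 0.64, 0.46 and 0.47 (adjusted p = 0.00141, 4.87e-06, 4.02e-05 and 3.53e-05).

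Iars2, the isoleucyl enzyme of mitochondria, had the deepest mitochondrial fall that was called. It was at 35.8, 37.0 and 29.1 FPKM in siNT and at 19.0, 21.2 and 17.7 FPKM in siRpl11. The other knockdowns were between these, at 25.7, 27.3 and 22.8 FPKM in siRpl14, 22.6, 23.7 and 19.8 in siRpl18, and 22.9, 26.0 and 20.01 in siRpl23. Within each table every knockdown library was below siNT. It fell by 0.83 ± 0.07 (SE, adjusted p = 3.41e-06) in siRpl11, 0.44 in siRpl14, 0.63 in siRpl18 and 0.56 in siRpl23 on the log2 scale.

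Aars2 (alanine) was at 17.6, 17.6 and 18.6 FPKM in siNT, at 10.5, 10.2 and 12.6 FPKM in siRpl11 and at 11.5 to 15.1 FPKM over the other knockdown libraries. It fell by 0.72 in siRpl11, 0.39 in siRpl14, 0.54 in siRpl18 and 0.42 in siRpl23. Its cytosolic counterpart Aars fell in all 4 knockdowns too. Vars2 (valine) was at 5.70, 5.67 and 4.86 FPKM in siNT and 3.53, 2.98 and 2.69 FPKM in siRpl11, with log2 fold changes of -0.66, -0.31, -0.40 and -0.35. In siRpl14 the Vars2 call was lost without siRpl14 replicate 2, at -0.24. Tars2 (threonine) was at 35.1, 33.9 and 30.3 FPKM in siNT and 25.03 to 29.1 FPKM over the knockdown libraries, with log2 fold changes of -0.29 to -0.33.

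A further 6 mitochondrial members were called in 1 or 2 knockdowns each. Of their calls, Wars2 in siRpl11 and Rars2 in siRpl14 held under every alternative. Fars2 (phenylalanine) was at 12.8, 12.9 and 9.97 FPKM in siNT and 14.8, 16.4 and 16.03 FPKM in siRpl18, where it rose by 0.26 (adjusted p = 0.00616). Its rise in siRpl11 was 0.17 (adjusted p = 0.0431), and its values in siRpl14 and siRpl23 were 0.03 and 0.00, although the third libraries gave 0.76 and 0.47 there. Wars2 (tryptophan) was called higher in siRpl11 (0.31) and siRpl23 (0.28), Rars2 (arginine) in siRpl14 (0.31), Yars2 (tyrosine) in siRpl11 (0.29) and siRpl14 (0.22), and Mars2 (methionine) in siRpl14 (0.24) and siRpl23 (0.18). Hars2 (histidine) was called lower in siRpl11 (-0.24). Among these calls the third library had the opposite sign for Hars2 in siRpl11 (0.04), Yars2 in siRpl14 (-0.13) and Mars2 in siRpl23 (-0.22). Uncalled values could lie close to called ones. Yars2 was at 0.20 in siRpl18 and 0.21 in siRpl23 (limma, adjusted p = 0.0537 and 0.0511), where the third libraries gave -0.07 and -0.26. Rars2 was at 0.14, 0.16 and 0.17 in siRpl11, siRpl18 and siRpl23, where the third libraries gave 0.08, 0.01 and 0.18. Ears2, Nars2 and Pars2 were not called against siNT.

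Lars2, the mitochondrial leucyl enzyme, varied widely between libraries of siRpl14, siRpl18 and siRpl23 and less in siNT and siRpl11. It was at 165, 181 and 116 FPKM in siNT, 98.6, 104 and 87.5 in siRpl11, 275, 144 and 106 in siRpl14, 288, 96.7 and 167 in siRpl18, and 55.2, 112 and 88.6 in siRpl23. With 1 spread shared by all groups no Lars2 comparison was called, at log2 fold changes of -0.76, 0.20, -0.05 and -1.12 (SE 0.47). The call depended on the fit: with only the groups compared, Lars2 was lower in siRpl11 (adjusted p = 2.12e-05) and siRpl23 (adjusted p = 0.00763), and in siRpl23 it passed under 7 of 17 alternatives (adjusted p = 0.00763 to 0.34 over all of them). In siRpl11 it passed under that 1 alternative only (2.12e-05 to 0.485). Rn45s, the ribosomal RNA precursor, was at 3646 FPKM in siRpl14 library 1 and 4637 FPKM in siRpl18 library 1, the libraries with the highest Lars2, and at 538 FPKM in siRpl23 library 1, which had the lowest. Its part in the Lars2 values was not tested.

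**Figure D3:**
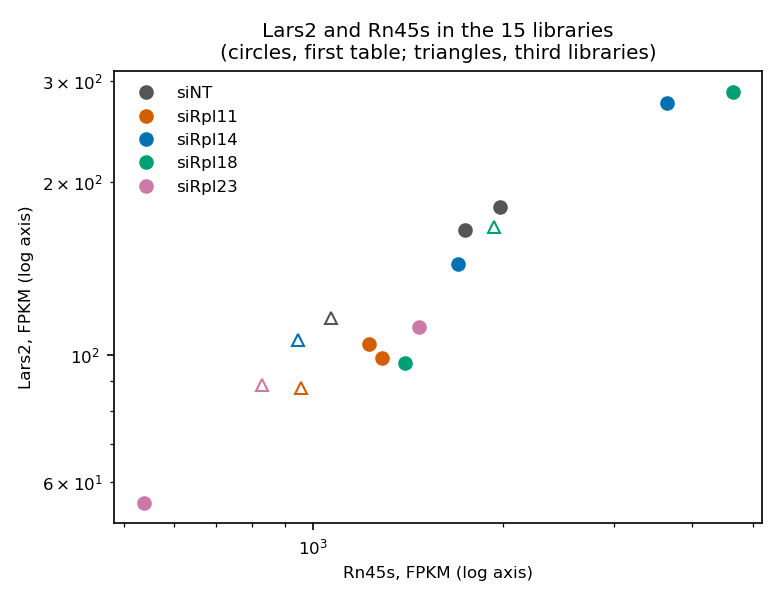
Lars2 FPKM against Rn45s FPKM, both on log axes, in the 15 libraries, coloured by siRNA group (circles, libraries 1 and 2; triangles, the third libraries). The lowest and the highest library by either gene are the same, at 538 FPKM of Rn45s with 55.2 FPKM of Lars2 and at 4637 FPKM with 288 FPKM.

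Cytosolic and mitochondrial enzymes for the same amino acid were set side by side in 17 pairs, counting Eprs with both Ears2 and Pars2 and Fars2 with both cytosolic subunits. The cytosolic log2 fold change was the lower of the pair in 14 pairs in siRpl11, 15 in siRpl14, 16 in siRpl18 and 15 in siRpl23, and in 15, 17, 15 and 16 pairs in the third libraries. The median difference was -0.18, -0.43, -0.40 and -0.40. Serine had the widest gap, with Sars minus Sars2 at -2.11, -1.87, -1.99 and -1.99 in libraries 1 and 2 and at -1.88, -1.68, -1.64 and -1.86 in the third libraries. Isoleucine went the other way, with Iars minus Iars2 at 0.37, 0.18, 0.40 and 0.30, and at 0.26, -0.01, 0.34 and 0.28 in the third libraries. Lars minus Lars2 was 0.14 in siRpl11 and 0.50 in siRpl23, where the third libraries gave -0.07 and -0.17. Vars minus Vars2 was 0.07 in siRpl11, with 0.13 in the third libraries, and was negative in the other knockdowns. Farsa minus Fars2 was 0.001 in siRpl14, where the third libraries gave -0.84. The pairs share enzymes and libraries, and these differences were not tested.

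**Figure D4:**
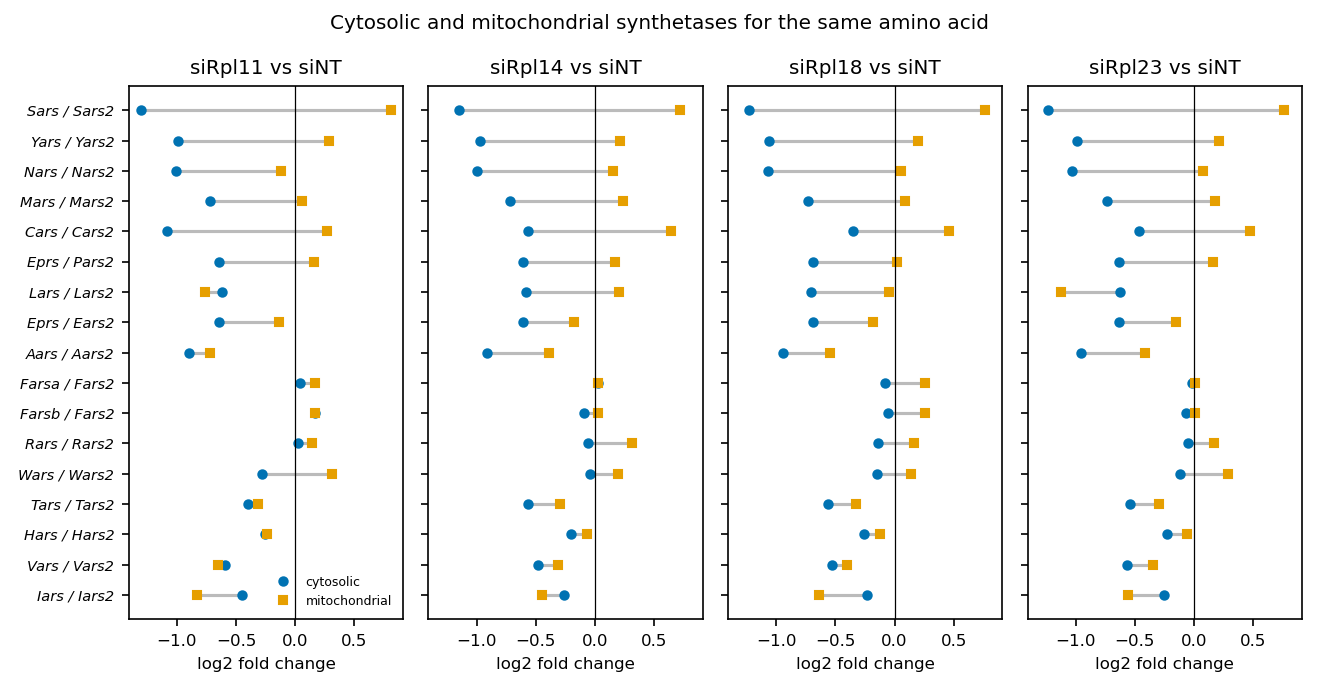
Log2 fold change against siNT for the cytosolic (circle) and mitochondrial (square) enzyme of each of 17 amino acid pairs, 1 panel per knockdown, with a line joining the pair. The Sars and Sars2 pair is the widest in every panel (-2.11 to -1.87 between them), and in the Iars and Iars2 pair the mitochondrial point is the lower.

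Differences between knockdowns were tested in the same fit. The moderated F test over the 4 knockdowns called 7 of 20 cytosolic and 5 of 16 mitochondrial members, where 60.8% of all tested genes were called. Sars was not among them (adjusted p = 0.302). Cars, the cysteinyl enzyme, had the smallest p (adjusted p = 4.1e-06). It was at 52.3, 48.8 and 48.1 FPKM in siNT, 23.4, 23.2 and 27.3 in siRpl11, 34.6, 33.1 and 40.6 in siRpl14, 38.3, 40.3 and 47.5 in siRpl18, and 36.9, 35.9 and 44.6 in siRpl23. The siRpl11 libraries were lower than all others. Cars fell by 1.08 in siRpl11 (adjusted p = 6.61e-08), 0.56 in siRpl14, 0.35 in siRpl18 and 0.46 in siRpl23, and the third libraries gave -0.80, -0.24, -0.02 and -0.11.

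Qars, the glutaminyl enzyme of the complex, was likewise lowest in siRpl11, but with another order of the rest (F test, adjusted p = 6.26e-05). It was at 90.2, 88.2 and 89.5 FPKM in siNT, 54.6, 58.0 and 56.3 in siRpl11, 74.3, 78.5 and 77.2 in siRpl14, 66.3, 67.4 and 70.0 in siRpl18, and 75.0, 78.3 and 74.5 in siRpl23. The siRpl11 libraries were lowest and the siRpl18 libraries next, with no overlap. The log2 fold changes were -0.65, -0.22, -0.41 and -0.22. Iars was at 93.0, 88.7 and 99.0 FPKM in siNT, 66.8, 65.3 and 73.4 in siRpl11 and 74.8 to 86.8 FPKM over the other knockdown libraries, with log2 fold changes of -0.45, -0.26, -0.23 and -0.25.

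Against the mean of the other 3 knockdowns, siRpl11 had 5 cytosolic members higher and 4 lower, where 62.6% of all tested genes were called, 18.4% higher and 44.2% lower. The lower ones were Cars (-0.62, adjusted p = 5.51e-07), Qars (-0.37, adjusted p = 1.46e-05), Iars (-0.20) and Wars (-0.18). The higher ones were Dars (0.31), Farsb (0.24), Kars (0.19), Tars (0.16) and Rars (0.11). Among mitochondrial members 5 were lower (Vars2, Iars2, Aars2, Cars2 and Nars2, from -0.21 to -0.30) and 0 higher at an adjusted p under 0.05. The third libraries had the same sign for all 14, as they had for 96.7% of all genes called in this contrast.

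These siRpl11 differences depended on scaling. The median of all tested genes in this contrast was -0.12, and quantile normalization moved it by 0.16 and median-ratio scaling by 0.15. Under median-ratio scaling 14 cytosolic members were higher and 2 lower, and 7 mitochondrial members were higher and 0 lower. The calls of Cars, Qars, Dars and Farsb held under every alternative, and none of the 5 mitochondrial calls did. Without siRpl11 replicate 2 the cytosolic higher calls were 2 and the mitochondrial lower calls 3.

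**Figure D5:**
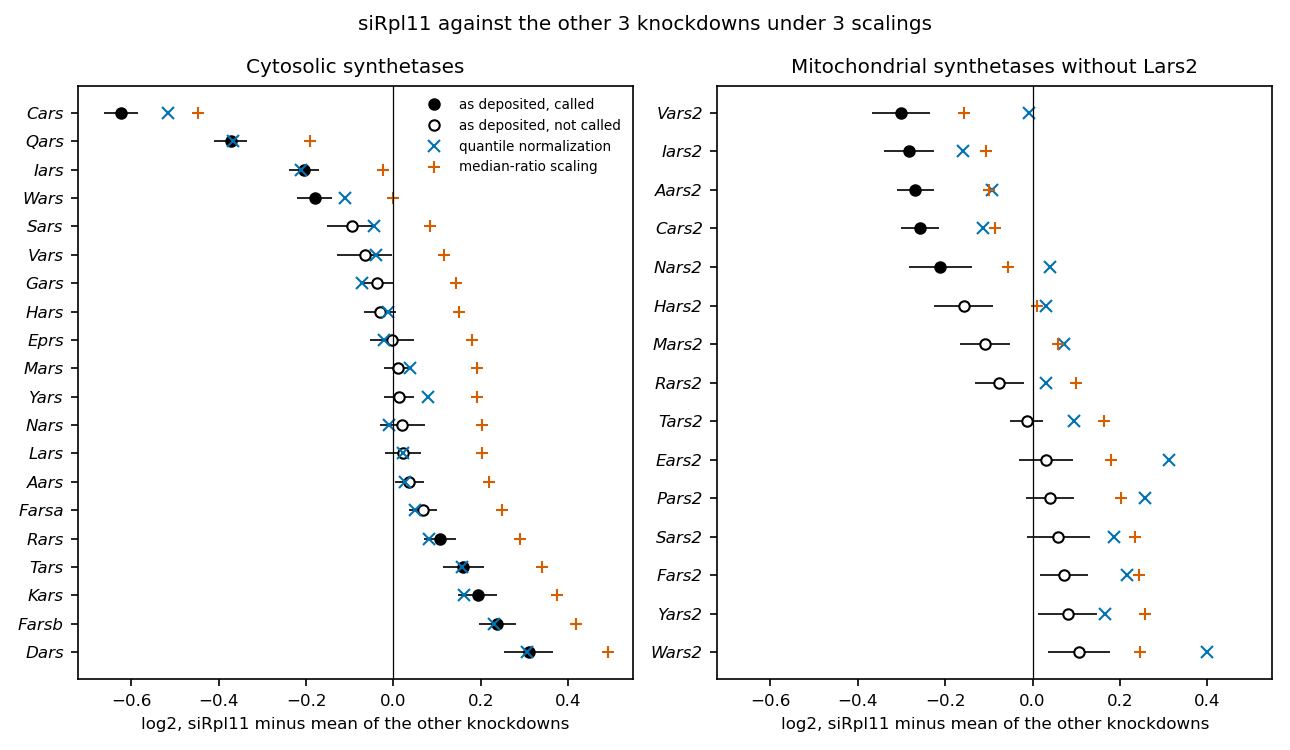
Log2 difference between siRpl11 and the mean of the other 3 knockdowns for cytosolic (left) and mitochondrial (right, without Lars2) synthetases. Circles are the deposited values with ± 1 SE, filled where called, and crosses and plus signs are the estimates after quantile normalization and median-ratio scaling. Cars (-0.62) and Qars (-0.37) stay left of 0 and Dars (0.31) and Farsb (0.24) right of 0 under all 3, whereas Nars2 and several others cross 0.

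The other 3 knockdowns were also compared in pairs. Between siRpl14 and siRpl18, limma called 2 cytosolic members and 1 mitochondrial member, where 14.3% of all tested genes were called. They were Cars (-0.21, adjusted p = 0.0205), Qars (0.19, adjusted p = 0.0244) and Fars2 (-0.23, adjusted p = 0.046). In the third libraries Cars and Qars had the same sign. Fars2 had the opposite sign there, at 17.6 FPKM in siRpl14 and 16.03 FPKM in siRpl18. Without any 1 of the 4 siRpl14 and siRpl18 libraries, 0 or 1 of the cytosolic calls was left, and the Fars2 call was lost without any 1 of the 8 knockdown libraries. Between siRpl14 and siRpl23, where 0.514% of all tested genes were called by limma, no member was called; 0 cytosolic and 2 mitochondrial members had an unadjusted p under 0.05. Between siRpl18 and siRpl23, where 3.51% were called, no member was called by limma, with 2 cytosolic and 3 mitochondrial members at an unadjusted p under 0.05. The cytosolic differences lay between -0.10 and 0.09 in the former and between -0.19 and 0.11 in the latter. The mitochondrial differences reached 1.33 and 1.08, both in Lars2.

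Genes around the synthetases in the tRNA pathway were read from lists in the same fit. Xpot, the exporter of tRNA from the nucleus, fell in all 4 knockdowns, by 0.29, 0.28, 0.33 and 0.29 on the log2 scale. Xpo5, a related exporter, was not called (-0.08 to 0.02). Of 21 tested tRNA processing genes, 8 were called higher and 4 lower in siRpl11, 9 and 2 in siRpl14, 9 and 7 in siRpl18 and 8 and 3 in siRpl23, where 70.9%, 62.8%, 67.6% and 65.7% of all tested genes were called. The RNase P subunit genes Pop7 and Pop5 rose most (mean log2 fold change 0.69 and 0.49 over the knockdowns). Ssb, the La protein that binds the ends of RNA polymerase III transcripts, was lowest (-0.22) and was called in all 4. In the third libraries of siRpl11, siRpl14, siRpl18 and siRpl23, Pop5 was at 94.7%, 137%, 108% and 117% of siNT. Pop7 was at 172%, 157%, 160% and 144% there. The sign was the same in the third libraries for 11 of 12, 11 of 11, 13 of 16 and 11 of 11 tRNA processing calls. Among all called genes it was the same for 91.8%, 91%, 90.7% and 88.9%.

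The RNA polymerase III list held 21 tested genes, of the polymerase, which makes tRNA, of its initiation factors and of its repressor Maf1. Of these, 11 were higher and 4 lower in siRpl11, and 9 higher and 4 lower in each of the other knockdowns. The called share (15 and 13 of 21) is near that of all tested genes. That was 70.9% in siRpl11 and 62.8% to 67.6% in the others. Maf1 was among the higher calls in all 4 knockdowns. The 4 lowest on average were Polr3gl (-1.21), Bdp1 (-0.49), Polr3g (-0.48) and Gtf3c4 (-0.22), and each was called in all 4. Gtf3c6 and Gtf3c1, of the basal factor TFIIIC, were the highest on average, at 1.03 and 0.69. They were called in 4 and 3 knockdowns. The proofreading and synthetase-like genes numbered 5: Prorsd1 (mean 0.66) was called in all 4, Tarsl2 (0.54) in 3, and Dtd1 (-0.22) and Dtd2 (-0.36), which clear D-aminoacyl-tRNA, in 3 each. For this list the third libraries had the same sign for 2 of 4, 2 of 3, 5 of 5 and 5 of 5 calls. Dtd1 in siRpl11 was at 82.6% of siNT in libraries 1 and 2 but at 104% in the third. Of 17 tested mitochondrial translation factors, 3 were higher and 8 lower in siRpl11 and 2 and 5 in siRpl14. The counts were 2 and 6 in siRpl18 and 2 and 4 in siRpl23. With both directions together, the called share was no more than that of all tested genes (70.9%, 62.8%, 67.6% and 65.7%). The third libraries had the same sign for 7 of 11, 3 of 7, 5 of 8 and 4 of 6 calls of these factors.

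Most reference genes of the amino acid response were called lower. Of 17 reference genes of ATF4, 15 were called lower and 2 higher in siRpl11, 13 and 2 in siRpl14, 12 and 3 in siRpl18 and 13 and 3 in siRpl23, where 43.6%, 29.5%, 34.7% and 30.8% of all tested genes were called lower. Their median log2 fold changes were -1.07, -0.85, -0.91 and -0.99. The Atf4 transcript itself was at -0.30, -0.33, -0.01 (not called) and -0.17, and in the third libraries at -0.10, -0.07, 0.21 and 0.08. Ddit3, which encodes the stress factor CHOP and overlaps Mars in the RefSeq annotation, was lower in siRpl11, as Mars was, and higher in the others, at -0.23, 0.44, 1.01 and 0.62; the third libraries gave 0.48, 1.42, 1.75 and 1.59. Other members that overlap a protein-coding gene in that annotation are Aars (Ddx19b), Farsb (Sgpp2), Hars and Hars2 (each other), Wars (Wdr25), Iars2 (Rab3gap2) and Rars2 (Orc3). Whether the counting used strand is not given in the sources used here, so reads of overlapping genes may not be separated in these members.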

How the data were processed

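RNA of 15 libraries was measured as FPKM per gene. The authors deposited these FPKM values, which come from STAR and Cuffnorm on mm9 per the submitters' processing notes. Tool versions, settings and annotation were not given in the sources used here. FPKM is relative to the reads of its library, so a change common to most transcripts is hidden. Any rescaling of libraries by Cuffnorm would hide it too. Left out were 2 columns of the first table, which matched none of the samples.

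The filter on low values required 1 FPKM in 2 or more of the first table's 10 libraries. log2(FPKM + 1) values, which understate changes of low genes, were fitted with limma 3.58.1 in R 4.3.3 (1 term per group, eBayes with trend, 5 residual degrees of freedom). A gene was called where its Benjamini-Hochberg adjusted p over all tested genes was under 0.05. Across genes, r between libraries 1 and 2 was 0.991 to 0.996 by group. The fit was also run on simulated data, with independent noise and a small part of the genes changed in siRpl11 only. In the real data most tested genes were called against siNT, so that run cannot show how the fit behaves here.

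Members and lists were chosen with earlier results of these data known. Members with values per library were the 3 largest calls per list and knockdown with the same sign in the third library. Calls against the majority and the 3 smallest F-test p per list were included too. In neighbouring lists at most the 2 highest and 2 lowest called genes were named. Polr3g, Gtf3c4, Maf1, Atf4, Ddit3, Slc3a2, Lars2 and Rn45s were named after their values were seen. Alternatives were another pseudocount, no filter, quantile and median-ratio scaling, a replicate block, only the groups compared, all 15 libraries, and leaving out each of the 10 libraries. Promoters come from RefSeq (GRCm38.p6), not the mm9 build of the tables. A sequence withheld for evaluation is not reported here.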

Additional observations from a re-analysis of the deposited data

How the results depend on the processing

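The counts of cytosolic calls lower than siNT stayed within 1.5 times under all 17 alternatives. Without 1 library they were 15 in siRpl11, 14 to 15 in siRpl14, 16 to 17 in siRpl18 and 15 to 16 in siRpl23; higher calls were 1 to 2 in siRpl11 (1 without siNT replicate 1 or siRpl11 replicate 2) and 0 elsewhere. Kept under all 17 were 14 of 17 cytosolic calls in siRpl11 (not Farsb, Hars and Wars), 14 of 15 in siRpl14 (not Kars), 15 of 17 in siRpl18 (not Rars and Wars) and 15 of 15 in siRpl23. Of mitochondrial calls, 7 of 10 (not Fars2, Hars2 and Yars2), 6 of 9 (not Mars2, Vars2 and Yars2), 6 of 7 (not Fars2) and 6 of 8 (not Mars2 and Wars2) were kept. The causes were not tested.

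Quantile normalization gave 8 mitochondrial higher calls in siRpl11, 4 higher and 2 lower mitochondrial calls in siRpl11 against the other knockdowns, and 1 cytosolic call between siRpl18 and siRpl23. It turned Nars2 in siRpl11 against the others to 0.041. Median-ratio scaling gave 4 cytosolic and 8 mitochondrial higher calls in siRpl11, 5 mitochondrial higher calls in siRpl18, 14 higher and 2 lower cytosolic and 7 higher and 0 lower mitochondrial calls in siRpl11 against the others, 1 cytosolic call between siRpl14 and siRpl18, 1 mitochondrial call between siRpl18 and siRpl23, and 15 cytosolic calls in the F test. Under it, in siRpl11 against the others, Eprs turned to 0.18, Gars to 0.14, Hars to 0.15 and Tars2 to 0.16. Over all tested genes, the higher share of calls in siRpl11 went from 38.5% to 50.9% with quantile normalization and 54.7% with median-ratio scaling.

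With no filter there were 1 cytosolic and 3 mitochondrial higher calls in siRpl11, 3 cytosolic higher calls in siRpl11 against the others, 0 cytosolic and 0 mitochondrial calls between siRpl14 and siRpl18 and 2 mitochondrial calls in the F test. With only the groups compared, siRpl14 and siRpl18 differed in 0 cytosolic and 0 mitochondrial members. With all 15 libraries 1 cytosolic member was called between siRpl18 and siRpl23.

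The labels do not say that same-numbered libraries belong together. Over 10 pairs of groups their deviations correlated at -0.0858 to 0.195, with 5 over 0.1, so pairing was not assumed. Library 2 was nonetheless above library 1 in all 5 groups for 11 of 20 cytosolic members, where 8.56% of all tested genes were. A replicate block gave 5 mitochondrial higher calls in siRpl18, 7 in siRpl23, 5 cytosolic and 4 mitochondrial calls between siRpl14 and siRpl18, 1 cytosolic and 1 mitochondrial between siRpl18 and siRpl23, and 12 cytosolic calls in the F test. It moved no other count by over 1.5 times.

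Without 1 library, mitochondrial higher calls were 3 to 5 in siRpl11, 3 to 6 in siRpl14, 3 to 5 in siRpl18 and 2 to 5 in siRpl23, and lower calls 4 to 5, 3 to 5, 4 to 5 and 4 to 5. In siRpl11 against the others, cytosolic calls were 2 to 5 higher and 4 lower, and mitochondrial calls 0 higher and 3 to 6 lower. Between siRpl14 and siRpl18 there were 0 to 2 cytosolic and 0 to 1 mitochondrial calls, and the F test gave 4 to 8 and 4 to 7 (4 cytosolic without siRpl11 replicate 2). Depth cannot be stated from FPKM, and Wars2 (2.26 FPKM) was the lowest member in siNT.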
